A study of Mus musculus with 8 samples.

Results

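The genes described here are 10 antiviral interferon-stimulated genes, Ifit1, Ifit2, Ifit3, Isg15, Isg20, Oasl2, Rsad2, Ddx58, Ifih1 and Zbp1. They were taken by symbol from the 30406 genes that the 8 single-cell RNA-sequencing libraries shared, and each of the 10 was found. Their unique molecular identifiers (UMIs, which count RNA molecules) were summed per library within 6 cell classes of the mouse islet, and their levels were then compared over 4 conditions. Islets were isolated from male mice of 12 to 16 weeks (strain C57BL/6 in the labels, C57BL6/J in the methods of the study), and the islets of 10 mice were pooled for each of 2 experimental replicates. From each pool, islets were kept intact in culture for 18 h and either left untreated, or given IL-1β at 10 U/mL and IFN-γ at 150 U/mL (called cytokines here), or given the same cytokines with 2 mM NMMA, or given 2 mM NMMA alone. NMMA inhibits nitric oxide synthases, so the third condition was meant to give the cytokines without the nitric oxide that the islets would otherwise make. How much nitric oxide was left is not measured in these libraries. The labels name no deletion or transgene. The islets hold resident macrophages, endothelial cells and mesenchymal cells beside the endocrine cells, so a class can respond to products of the others.

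Interferon-stimulated genes are switched on when interferons reach their receptors. Type I and III interferons act mainly through the interferon-stimulated response element, whereas IFN-γ acts mainly through the gamma-activated site. Their products sense viral RNA or DNA and block viral replication, and in islets they have been studied because enterovirus infection and interferon signatures are linked to type 1 diabetes.

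By role, 3 of the genes encode sensors. Ddx58 (RIG-I) and Ifih1 (MDA5) are helicases that bind viral double-stranded RNA, and Zbp1 binds Z-form nucleic acid and can start necroptosis. Isg15 is a ubiquitin-like protein that is conjugated to other proteins. Ifit1, Ifit2 and Ifit3 encode proteins that bind foreign RNA or one another, Oasl2 is a relative of the oligoadenylate synthetases, Rsad2 (viperin) makes a chain-terminating nucleotide, and Isg20 is an exonuclease that degrades RNA. In the mouse genome GRCm38 with GENCODE M21, the 3 Ifit genes lay within 99.3 kb on the plus strand of chromosome 19, at chr19:34550694-34576419 (Ifit2), chr19:34583531-34588731 (Ifit3) and chr19:34640871-34650009 (Ifit1). Isg15 lay at chr4:156199424-156200818 and Ddx58 at chr4:40203773-40239828, both on the minus strand. Ifih1 at chr2:62595798-62646255, Zbp1 at chr2:173206612-173218923 and Rsad2 at chr12:26442746-26456452 were on the minus strand too, while Isg20 at chr7:78913424-78920396 and Oasl2 at chr5:114896936-114912234 were on the plus strand.

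Promoter windows of 300 bases, 250 before to 50 after the start site, were given by RefSeq for 9 of the 10 genes on GRCm38.p6, with 2 windows for Ifit2 and 3 for Isg20. They were searched on both strands for the core of the interferon-stimulated response element (GAAANNGAAA), the gamma-activated site (TTCNNNGAA) and the κB site bound by NF-κB (GGGANNTTCC), the factor that IL-1β activates. The response element core was found in 6 of the 9 genes, Ifit1, Ifit3, Isg15, Rsad2, Ddx58 and Ifih1, and in 3.44% of all 32851 promoter windows. The gamma-activated site was found only in Ifit2 and Isg20 among the members (8.30% of all windows), and the κB site also only in these 2 (1.47% of all windows, for Isg20 in a window other than the one shown here), while the Oasl2 window held none of the 3 motifs. In Ddx58 and Ifih1 the core lay after the start site. The 250 bases upstream of 4 members are shown, chosen because they hold the core 2 or 3 times (Ifit3 and Isg15) or lack it and hold the gamma-activated site (Ifit2 and Isg20). Each is written 5′ to 3′ on the gene's own strand with the motif matches in capitals.
Isg15 (chr4:156200819-156201068, minus strand, 3 overlapping response element cores that begin 78, 72 and 66 bases before the start): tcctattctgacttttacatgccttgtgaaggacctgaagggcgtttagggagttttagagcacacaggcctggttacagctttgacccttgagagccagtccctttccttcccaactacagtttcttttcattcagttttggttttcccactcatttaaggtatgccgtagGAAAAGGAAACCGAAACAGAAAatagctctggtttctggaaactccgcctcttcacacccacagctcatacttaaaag
Ifit3 (chr19:34583279-34583528, plus strand, response element cores 156 and 122 bases before the start): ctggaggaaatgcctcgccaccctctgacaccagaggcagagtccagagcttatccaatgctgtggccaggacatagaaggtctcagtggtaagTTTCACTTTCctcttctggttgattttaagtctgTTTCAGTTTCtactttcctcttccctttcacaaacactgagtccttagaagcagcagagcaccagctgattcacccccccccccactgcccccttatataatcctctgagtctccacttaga
Ifit2 (chr19:34550444-34550693, plus strand, an overlapping κB site and gamma-activated site 247 and 241 bases before the start): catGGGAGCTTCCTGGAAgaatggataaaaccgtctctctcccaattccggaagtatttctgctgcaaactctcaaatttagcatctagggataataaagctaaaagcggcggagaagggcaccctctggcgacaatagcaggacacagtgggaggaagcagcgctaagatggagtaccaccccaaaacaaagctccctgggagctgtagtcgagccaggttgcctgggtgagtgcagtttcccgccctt
Isg20 (chr7:78913174-78913423, plus strand, gamma-activated site 73 bases before the start): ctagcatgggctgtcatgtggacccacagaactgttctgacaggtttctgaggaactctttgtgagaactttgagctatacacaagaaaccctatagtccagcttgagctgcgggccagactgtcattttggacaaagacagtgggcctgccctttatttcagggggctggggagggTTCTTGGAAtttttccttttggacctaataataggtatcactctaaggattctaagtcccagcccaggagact
The capitals mark letters that match a motif and do not show that a factor binds there.

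The 8 libraries held 26549922 to 50731370 UMIs, and 10876 of 17426 deposited barcodes passed the filters on genes and mitochondrial RNA, with a median of 3983 to 24136 UMIs a barcode by library. At most 2 barcode sequences were shared by any pair of libraries. Clustering and fixed marker genes gave 6339 β-cells, 654 α-cells, 336 δ-cells, 324 macrophages, 282 endothelial cells and 220 mesenchymal cells, and each class had its own fixed markers among the genes detected. The conditions lay in different clusters of a class. Of the β-cells of replicate 1, 1542 of 1664 untreated cells were in cluster 0, 1030 of 1132 with cytokines in cluster 1 and 479 of 644 with cytokines and NMMA in cluster 7, while in replicate 2 these were 491 of 606 in cluster 3 and 421 of 570 and 350 of 444 in cluster 5. All β-cells of clusters 8 and 9 (led by heat-shock genes) were kept in the class. Untreated δ-cells were in sub-clusters 5 and 8, untreated macrophages mostly in cluster 13 and untreated endothelial cells in 14, as were those with NMMA alone. With cytokines, with or without NMMA, δ-cells were mostly in sub-cluster 6, macrophages in cluster 18 and endothelial cells in 19. Another 2336 barcodes could not be named, mostly for few UMIs. The smallest sums were those of δ-cells with cytokines alone, where replicate 1 had 8 cells and was left out and replicate 2 had 12 cells. All δ-cell comparisons with cytokines alone therefore rest on 1 library, which was assumed to vary like the others.

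In β-cells, cytokines raised all 10 genes. Levels are given as UMIs per 1000000 UMIs of the class sum, scaled by TMM within the class (CPM), and differences as log2 changes from edgeR's quasi-likelihood test with Benjamini-Hochberg adjustment over all genes tested. The increases ran from about 2-fold (Ifih1) to 129-fold (Zbp1). All 10 passed the adjusted threshold of 0.05, where 23.8% of all 12774 genes tested were called higher. The median change of the 10 genes was 3.65 on the log2 scale and that of all genes 0.0009.

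Among the sensors, Zbp1 was nearly undetected in β-cells without cytokines, at 0.361 and 1.21 CPM in the untreated libraries and 0.461 and 0.125 CPM with NMMA alone. It was measured at 96.1 and 81.2 CPM with cytokines and at 131 and 97.0 CPM with cytokines and NMMA, so that the libraries with and without cytokines were far apart. The log2 change with cytokines was 7.02 ± 0.52 (SE, n = 2 libraries per condition, edgeR adjusted p = 0.000133). The share of β-cells with a Zbp1 UMI gives the same contrast per cell. With each cell thinned to 10000 UMIs, it was 0.443% (95% exact binomial interval, counting error only, 0.178 to 0.91) and 1.37% (0.554 to 2.81) in untreated islets, against 40.3% (37.3 to 43.2) and 38.3% (33.9 to 42.9) with cytokines. Thinning left out 83 and 96 β-cells of the untreated libraries and 29 and 95 of the cytokine libraries, and before thinning the shares were 0.661% and 2.31% against 55.0% and 50.5%, at a median depth of 20421.5 to 29838 UMIs.

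Ddx58 and Ifih1, the RNA helicases, were expressed before treatment and had smaller changes than Zbp1. Ddx58 was at 11.3 and 13.8 CPM in untreated β-cells and at 39.0 and 35.0 CPM with cytokines, a log2 change of 1.57 ± 0.17 (edgeR adjusted p = 0.000132). Ifih1 was at 8.56 and 9.09 CPM untreated and at 16.4 and 19.5 CPM with cytokines, a log2 change of 1.03 ± 0.15 (edgeR adjusted p = 0.000746). For both genes the lower cytokine library lay above the higher untreated one. A Ddx58 UMI was found in 10.8% and 10.4% of thinned untreated β-cells and 27.0% and 23.8% with cytokines, and an Ifih1 UMI in 8.48% and 8.04% against 13.4% and 14.5%.

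Isg15 was at 0.695 and 1.21 CPM in untreated β-cells, at 84.6 and 51.8 CPM with cytokines and at 104 and 75.0 CPM with cytokines and NMMA. Its log2 change with cytokines was 6.25 ± 0.37, or 76.1-fold (edgeR adjusted p = 1.89e-05). An Isg15 UMI was found in 0.316% and 1.57% of thinned untreated β-cells and in 26.8% (24.2 to 29.6) and 21.1% (17.5 to 25.0) of those with cytokines. Most β-cells of the cytokine libraries therefore had no Isg15 UMI at this depth.

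Among the Ifit genes, Ifit2 had the highest fold. It was at 0.389 and 0.0606 CPM untreated and 28.1 and 26.0 CPM with cytokines, a log2 change of 6.58 ± 0.35 (edgeR adjusted p = 6.32e-06). Ifit3 went from 2.78 and 3.51 CPM to 64.0 and 41.3 CPM, with a log2 change of 4.09 ± 0.34 (edgeR adjusted p = 9.17e-05). Ifit1 went from 9.25 and 13.1 CPM to 89.2 and 106 CPM, with a log2 change of 3.13 ± 0.46 (edgeR adjusted p = 0.00261). A near-identical copy, Ifit3b, had 387 and 129 UMIs in β-cells with cytokines against 26 and 19 untreated, so reads of Ifit3 and Ifit3b may have been split between them and the level of Ifit3 is uncertain to that extent.

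The other effectors were likewise higher in both cytokine libraries. Oasl2 was at 4.20 and 5.03 CPM in untreated β-cells and at 69.2 and 52.7 CPM with cytokines, a log2 change of 3.74 ± 0.24 (edgeR adjusted p = 1.4e-05). Rsad2 was at 5.56 and 6.91 CPM untreated and 78.5 and 68.2 CPM with cytokines, a log2 change of 3.57 ± 0.66 (edgeR adjusted p = 0.0102). Isg20 differed from the rest in that most β-cells had it before treatment. It had 142 and 129 CPM in untreated β-cells, where 72.2% and 68.4% of thinned cells had a UMI, and 429 and 359 CPM with cytokines, where 93.9% and 88.4% did, a log2 change of 1.53 ± 0.15 (edgeR adjusted p = 9.17e-05).

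With cytokines and NMMA, all 10 genes were again called higher than in untreated β-cells, where 12.9% of all genes were, with log2 changes from 1.64 (Ddx58) to 7.38 (Zbp1). NMMA alone changed none of them in β-cells by edgeR, where 0.0% of all genes tested were called, and the count was also 0 at an unadjusted p under 0.05 and by DESeq2. The highest Ifit1 and Rsad2 levels without cytokines, 19.5 and 16.5 CPM, came from replicate 2 with NMMA alone, where replicate 1 had 7.22 and 4.36 CPM.

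**Figure D1:**
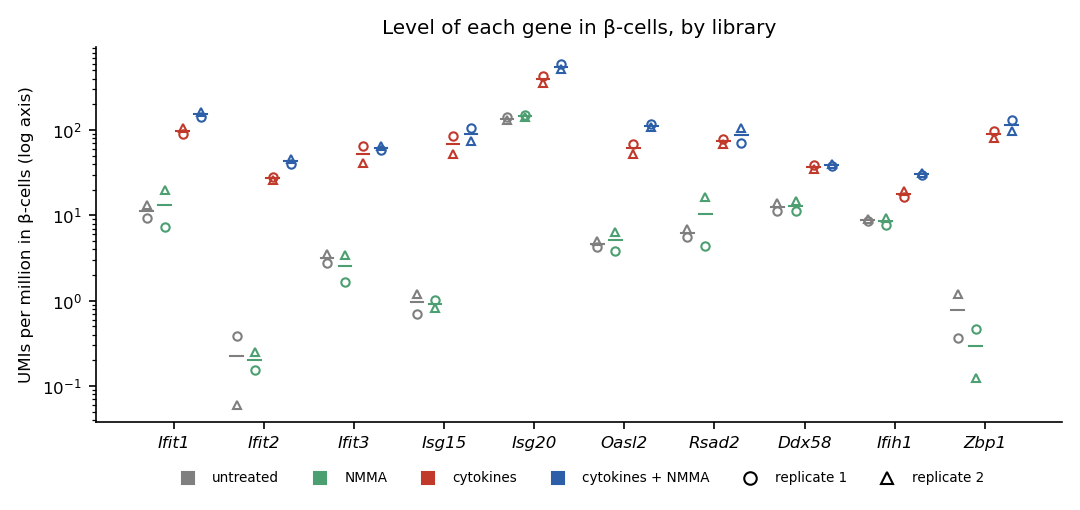
Level of each of the 10 genes in β-cells in CPM (log axis), with 1 point for each library, circles for replicate 1, triangles for replicate 2 and a bar at the mean of the 2 libraries. For each gene the 4 libraries with cytokines lie above the 4 without, and Isg20, at 142 and 129 CPM untreated, is the gene detected in most untreated β-cells.

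As plain CPM with no further scaling, the 9 β-cell markers summed to 386900 to 480582 CPM in the β-cell libraries. Markers of macrophages were higher in the β-cell libraries with cytokines, as the members were. The summed level of 10 macrophage markers in β-cells was 48.4 to 72.4 CPM untreated, 38.8 to 45.7 CPM with NMMA, 70.03 to 125 CPM with cytokines and 93.3 to 191 CPM with cytokines and NMMA, and at most 3 of the 10 markers were at 0 in a library. At the macrophages' own levels, that much macrophage RNA could supply at most 7.71% of any member's β-cell level with cytokines (Isg15), but at the near-zero untreated level of Ifit2 it could supply all of it.

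More of the 10 genes were detected in a β-cell with cytokines. Whether the genes met in the same cells more often than their separate shares would give was not tested. After thinning to 10000 UMIs, the median number of the 10 genes with a UMI in a β-cell was 1 in all 4 libraries without cytokines, 3 with cytokines and 5 with cytokines and NMMA. At least 5 of the 10 were found in 0.316% (95% exact interval 0.103 to 0.736) and 0.784% (0.214 to 1.996) of untreated β-cells. With cytokines the share was 26.2% (23.6 to 28.9) and 23.8% (20.03 to 27.9), and with cytokines and NMMA it was 53.8% (49.8 to 57.7) and 53.8% (48.5 to 59.0). All 10 genes were found in only 4 and 1 β-cells of the cytokine libraries and in 1 of each library with cytokines and NMMA.

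**Figure D2:**
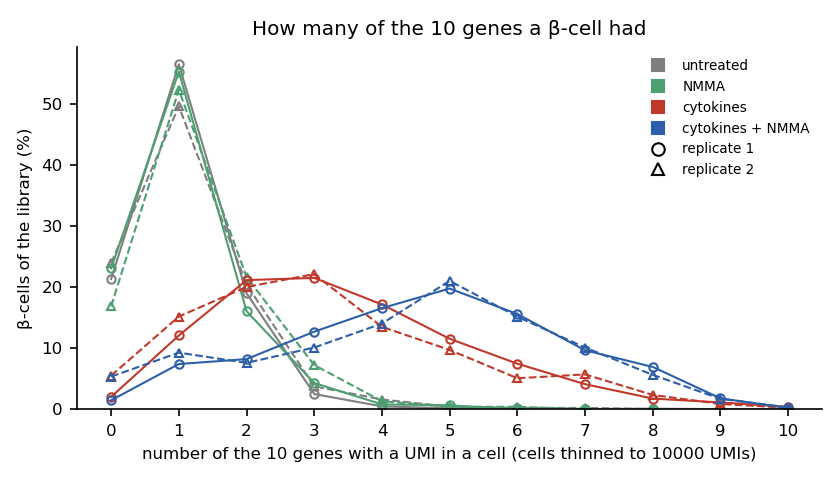
Share of the β-cells of each library (vertical axis, percent) by the number of the 10 genes with at least 1 UMI (horizontal axis), each cell thinned to 10000 UMIs, with solid lines and circles for replicate 1 and dashed lines and triangles for replicate 2. The 4 libraries without cytokines peak at 1 gene, and the curves with cytokines and NMMA lie to the right of those with cytokines alone.

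Nos2, which encodes the inducible nitric oxide synthase and is induced in mouse β-cells by IL-1β with IFN-γ, was used to divide the β-cells of the 4 cytokine libraries. At 10000 UMIs, 48.3% and 44.2% of β-cells had a Nos2 UMI with cytokines and 66.3% and 58.0% with cytokines and NMMA. All 10 members were higher in the β-cells with Nos2 than in those without (edgeR with library as a block), where 5.24% of all genes were called higher. The difference was largest for Isg15, at a log2 value of 1.33 ± 0.11 (edgeR adjusted p = 1.46e-17). An Isg15 UMI was found in 35.6% against 18.6% and in 27.1% against 16.2% of these cells with cytokines, and in 54.5% against 30.5% and 41.1% against 22.7% with cytokines and NMMA. Ifit2 followed at 1.04 ± 0.13 and Ifit3 at 0.84 ± 0.11, and the other 7 genes differed by 0.39 (Ddx58, edgeR adjusted p = 0.0198) to 0.59 (Ifih1). By DESeq2, 8 of the 10 were called, without Ddx58 and Ifih1. Ddx58 also did not pass with any 1 library left out or with the rebuilt clusters. The Ifit1 shares were 39.0% against 40.4% and 42.9% against 40.8% with cytokines. With cytokines and NMMA they were 65.6% against 44.3% and 68.6% against 46.0%. A cell with no Nos2 UMI at this depth may still express Nos2. Other measures moved with this split, and their part in it was not tested. Before thinning, cells with Nos2 were deeper (median 25334 against 24554 and 32968 against 29647 UMIs with cytokines, 29996 against 27607 and 32837 against 24766.5 with NMMA added). The heat-shock gene Hspa1a was found in more of the Nos2 cells with cytokines (53.1% against 36.5% and 52.9% against 45.3%) and in fewer with NMMA added (18.6% against 32.9% and 19.3% against 39.3%).

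NMMA added to the cytokines did not lower any member's fitted level in β-cells. All 10 changes against cytokines alone were positive, although within replicate 1 Ifit3 (64.0 and 58.0 CPM), Rsad2 (78.5 and 70.1 CPM) and Ddx58 (39.0 and 37.6 CPM) were lower with NMMA added. The changes had a median of 0.44 on the log2 scale against 0.0127 for all genes, and 3 passed the test, where 10.4% of all genes were called higher. Oasl2 rose further, from 69.2 and 52.7 CPM to 118 and 107 CPM, by 0.88 ± 0.21 (edgeR adjusted p = 0.0228). Ifih1 rose from 16.4 and 19.5 CPM to 29.6 and 31.7 CPM, by 0.77 ± 0.15 (edgeR adjusted p = 0.0101). Isg20 rose from 429 and 359 CPM to 592 and 515 CPM, by 0.49 ± 0.15 (edgeR adjusted p = 0.0472). For these 3 genes the libraries of the 2 conditions did not overlap.

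Of the 7 members that did not pass, Ifit2 (40.4 and 45.2 CPM with NMMA added) had a log2 difference of 0.66 ± 0.23 (edgeR adjusted p = 0.0799) and Ifit1 (143 and 162 CPM) one of 0.64 ± 0.42 (edgeR adjusted p = 0.334). Ddx58 had the smallest, at 0.07 ± 0.16. With the replicate as a block, since both libraries of a replicate came from 1 pool of islets, 5 members were called, with Ifit2 (edgeR adjusted p = 0.000545) and Isg15 (0.41 ± 0.13, edgeR adjusted p = 0.0173) added. The share of all genes called under this block is not reported here, so the higher count may not be particular to the members. The count fell to 0 without cytokine replicate 1 or without replicate 2 of cytokines with NMMA, and to 1 without either of the other 2 libraries of the comparison.

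**Figure D3:**
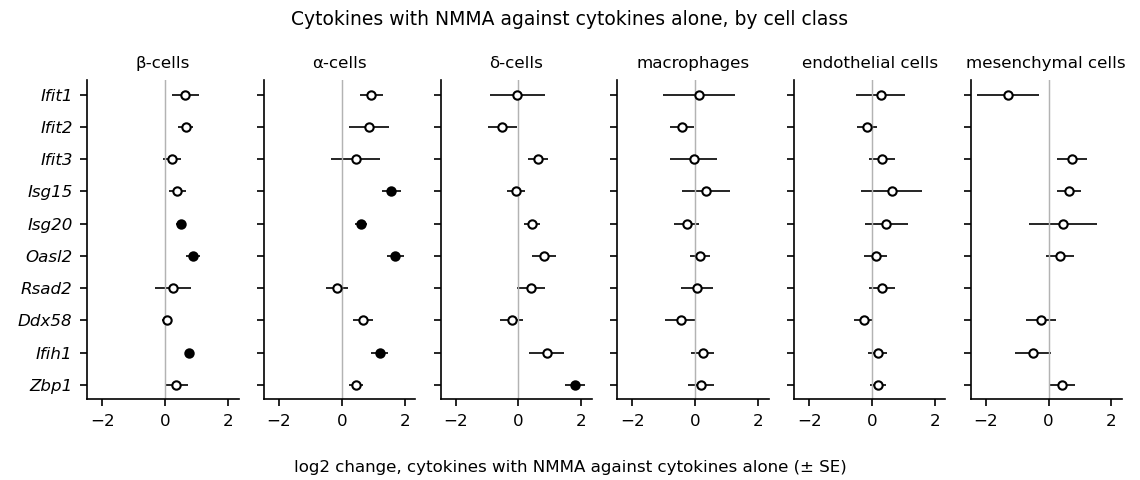
Log2 change of each gene between cytokines with NMMA and cytokines alone in the 6 classes (points, horizontal bars ± SE), filled where the edgeR adjusted p was under 0.05, with no point where a gene was not tested. Filled points occur in β-cells (3), α-cells (4) and δ-cells (1, Zbp1), and none in the other 3 classes. An open point does not show that a level was unchanged.

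In α-cells, cytokines raised 7 of the 10 genes (13.9% of all genes tested were called higher), and the median change was 2.63 against −0.023 for all genes. Zbp1 gave the largest contrast, at 0.721 and 0 CPM untreated and 100.1 and 114 CPM with cytokines. With 1 untreated UMI in all, its ratio was 254 (95% counting interval 45.0 to 10073). Isg15 had 3 untreated UMIs (0 and 1.64 CPM) and 38.8 and 21.6 CPM with cytokines, a ratio of 21.6 (6.98 to 108). Both passed the test. Oasl2 changed by 3.72 ± 0.48 on the log2 scale, Rsad2 by 2.55 ± 0.44, Ifit1 by 2.09 ± 0.43, Isg20 by 1.90 ± 0.20 and Ddx58 by 1.15 ± 0.38, the last with an edgeR adjusted p of 0.0373. Ddx58 did not pass with total UMI scaling or by DESeq2, which called 6 members.

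Ifit2 and Ifit3 did not pass in α-cells, at 2.82 ± 0.92 (edgeR adjusted p = 0.0659) and 2.71 ± 1.04 (edgeR adjusted p = 0.136). In untreated replicate 1, all 9 Ifit2 UMIs and all 17 Ifit3 UMIs of the α-cell sum were in 1 of 94 cells, and replicate 2 had none of either. With the replicate as a block Ifit2 passed (edgeR adjusted p = 0.0377).

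Ifih1 was the member whose α-cell level stood apart. It was at 48.3 and 49.6 CPM in untreated α-cells and at 34.4 and 29.0 CPM with cytokines, so that both cytokine libraries lay below both untreated ones, although the change of −0.65 ± 0.28 did not pass (edgeR adjusted p = 0.0984). In 32.1% and 24.1% of untreated α-cells thinned to 8500 UMIs there was an Ifih1 UMI, against 13.3% (5.05 to 26.8) and 11.7% (4.82 to 22.6) with cytokines and 41.1% and 29.1% with cytokines and NMMA. With NMMA added the level was 68.3 and 76.6 CPM, higher than with cytokines alone by 1.21 ± 0.27 (edgeR adjusted p = 0.00671).

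NMMA beside cytokines raised 3 further members in α-cells (4 in all, where 5.49% of all genes were called higher). Oasl2 went from 22.4 and 20.7 CPM to 77.2 and 63.4 CPM, a change of 1.71 ± 0.28 (edgeR adjusted p = 0.000869). Isg15 went from 38.8 and 21.6 CPM to 79.4 and 91.8 CPM, a change of 1.58 ± 0.30 (edgeR adjusted p = 0.00284). Isg20 changed by 0.62 ± 0.20 (edgeR adjusted p = 0.0480). In the fit with a replicate block Ifit1 (0.97) passed too (edgeR adjusted p = 0.00105). Against untreated α-cells, 8 members were higher with cytokines and NMMA, where 6.34% of all genes were, and NMMA alone changed none by edgeR (0.0% of all genes) or DESeq2 (0), with 1 member, Rsad2, at an unadjusted p under 0.05 (−2.16).

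Insulin RNA and heat-shock RNA moved with the α-cell groups. As plain CPM with no further scaling, the 9 β-cell markers summed to 8408 to 10649 CPM in untreated α-cells, 51749 to 52605 CPM with cytokines and 26841 to 65392 CPM with cytokines and NMMA. If every insulin UMI in α-cells came from free RNA with the makeup of the whole library, that RNA would be 1.997% to 2.12% of the untreated sums and 13.7% to 14.0% of the cytokine sums, and could supply a median of 20.9% of a member's level with cytokines and at most 74.6% (Isg15 in replicate 2). Hspa1a was at 122 and 35.8 CPM in untreated α-cells, 1504 and 860 CPM with cytokines and 621 and 65.5 CPM with cytokines and NMMA. The α-cells of the conditions also lay in different sub-clusters: 52 of 52 and 59 of 74 with cytokines in sub-cluster 3, 85 of 98 and 92 of 94 with cytokines and NMMA in sub-cluster 0, and 88 of 94 and 90 of 94 untreated in sub-clusters 4 and 1. The part of these differences in the α-cell results was not tested.

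In δ-cells, 8 of the 10 genes were higher with cytokines (4.47% of all genes), with a median of 4.09 against 0.0095. Isg15 was at 4.27 and 6.04 CPM untreated and 543 CPM in the cytokine library, a change of 6.71 ± 0.39 (edgeR adjusted p = 4.36e-09). Ifit2 changed by 6.01 ± 0.64, Zbp1 by 5.78 ± 0.48, Oasl2 by 4.90 ± 0.60, Ifit3 by 4.17 ± 0.40, Rsad2 by 3.45 ± 0.60, Isg20 by 2.38 ± 0.25 and Ddx58 by 2.35 ± 0.43. Ifit1 rose in value, from 8.54 and 25.7 CPM to 259.9 CPM, but passed only with the replicate as a block (3.77, edgeR adjusted p = 2.49e-20). Without the block its adjusted p was 0.169. Ifih1 was at 16.01 and 31.7 CPM untreated and 37.8 CPM with cytokines, which did not pass (0.71 ± 0.62, edgeR adjusted p = 0.586).

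With cytokines and NMMA, where both replicates had 37 or more δ-cells, 9 members were higher than untreated (6.08% of all genes). Ifit1 again passed only with the block (3.99, edgeR adjusted p = 3.27e-47, against 0.09998 without). With 2 libraries per condition, a p this small rests on the dispersion fitted to the gene, and whether that dispersion holds was not tested. An Isg15 UMI was found in 2.82% and 2.63% of untreated δ-cells thinned to 7000 UMIs and in 78.2% and 94.3% with cytokines and NMMA. In the 11 thinned δ-cells of the cytokine library the share was 45.5% (16.7 to 76.6). Zbp1 was the member called higher with NMMA added than without it, at 495 and 526 CPM against 147 CPM (1.80 ± 0.32, edgeR adjusted p = 0.00299), where 1.12% of all genes were. NMMA alone changed none of the 10 by edgeR (0.0% of all genes), with 0 at an unadjusted p under 0.05 and 0 by DESeq2.

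In macrophages, the genes were detected without cytokines, and the 2 untreated libraries differed widely. Isg15 was at 83.2 and 275 CPM untreated, Ifit3 at 13.9 and 125 CPM and Ifit1 at 5.54 and 92.1 CPM, with replicate 2 higher each time. With cytokines Isg15 was at 639.6 and 1283 CPM, above both untreated libraries, but the change of 2.39 ± 0.82 passed only with the replicate as a block (2.46, edgeR adjusted p = 6.54e-07, against 0.276 without). An Isg15 UMI was found in 6.45% and 25.4% of untreated macrophages thinned to 1500 UMIs and in 66.7% and 69.0% of those with cytokines. The genes that passed were Ifit2 (5.54 and 31.2 to 162 and 232 CPM, 3.19 ± 0.47), Rsad2 (22.2 and 87.9 to 534 and 394 CPM, 2.98 ± 0.57), Zbp1 (47.1 and 137 to 444 and 509.8 CPM, 2.31 ± 0.45) and Oasl2 (49.9 and 85.0 to 252 and 281 CPM, 1.93 ± 0.33). These were 4 of 10, where 3.82% of all genes were called higher, and the median over the 10 genes was 1.87 against −0.0093. The 9 β-cell markers summed to 18543 and 43560 CPM in untreated macrophages (0 of 9 at 0) and to 2280 and 6747 CPM with cytokines (6 of 9 at 0), and the insulin-based ceiling on free RNA was 4.52% to 12.9% and 0.589% to 1.91% of the sums. Hspa1a was at 2.81 and 0 CPM untreated and 510 and 18.3 CPM with cytokines, and the part of these differences was not tested.

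Ddx58 (0.87 ± 0.51), Ifih1 (1.12 ± 0.41) and Isg20 (1.05 ± 0.42) had positive macrophage values that did not pass. The count with cytokines was 2 without either cytokine library and 5 without untreated replicate 2. With cytokines and NMMA, 4 members were higher than untreated (5.16% of all genes), and with the block Isg15 (2.84, edgeR adjusted p = 9.23e-08) and Ifih1 (1.38, edgeR adjusted p = 0.0193) passed as well. By edgeR, none of the 10 was called higher with NMMA added to cytokines (0.116% of all genes), and none was called with NMMA alone (0.0%). Both counts were also 0 at an unadjusted p under 0.05 and by DESeq2. In simulated counts for cytokines against untreated, 15.2% of 2-fold changes were recovered in this class. A member that was not called is thus not shown to be unchanged.

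In endothelial cells, 7 of the 10 genes rose with cytokines (4.65% of all genes), with a median of 3.43 against −0.0197. Ifit2, with 2 untreated UMIs (3.84 and 0 CPM), reached 174 and 181 CPM, a ratio of 96.1 (95% counting interval 25.9 to 805). Zbp1, with 3 untreated UMIs, reached 323 and 428 CPM, a ratio of 139.9 (47.2 to 684), and the share of endothelial cells with a UMI at 4500 UMIs went from 2.27% and 2.17% to 46.7% and 69.6%. Ifit3 changed by 5.29 ± 0.59, Oasl2 by 3.35 ± 0.42, Rsad2 by 3.0 ± 0.48, Ifih1 by 2.36 ± 0.34 and Ddx58 by 1.55 ± 0.31.

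Ifih1 was thus called in endothelial cells, at 15.4 and 23.9 CPM untreated and 109 and 101 CPM with cytokines (edgeR adjusted p = 0.000162). Isg15, from 28.8 and 109.8 CPM to 650.1 and 966 CPM, did not pass (3.51 ± 1.10, edgeR adjusted p = 0.218), and neither did Isg20 (1.44 ± 0.75). Ifit1, from 3.84 and 19.7 CPM to 94.3 and 296 CPM, passed once the replicate was a block (3.98, edgeR adjusted p = 7.30e-05) and not without it (edgeR adjusted p = 0.122). With cytokines and NMMA 7 members were higher than untreated (5.01% of all genes), and Ifit1 passed with the block (4.31, edgeR adjusted p = 2.51e-05). Replicate 1 of that condition, with 14 cells, had the 10 macrophage markers at 1430 CPM with none at 0, while replicate 2 had 15.9 CPM and the untreated libraries 14.0 and 7.29 CPM, and its part in the result was not tested. With cytokines alone the markers were at 4.66 and 2.57 CPM, with 9 of 10 at 0. With NMMA added to cytokines no member was called by edgeR (0.0% of all genes), with 0 at an unadjusted p under 0.05 and 0 by DESeq2. With NMMA alone none was called either (0.0% of all genes, 0 by DESeq2), with 1 member, Ddx58 (−0.77), at an unadjusted p under 0.05. In simulated counts for cytokines against untreated, 12% of 2-fold changes were recovered in endothelial cells, so these counts do not show that levels were unchanged.

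In mesenchymal cells, Ifit2 and Rsad2 were too low to be tested, and 5 of the other 8 genes were higher with cytokines (1.73% of all genes). Zbp1 went from 13.6 and 4.84 CPM to 256 and 386 CPM (5.16 ± 0.56, edgeR adjusted p = 0.000592). Ifit3 changed by 3.66 ± 0.60, Ifih1 by 3.22 ± 0.70, Oasl2 by 2.74 ± 0.53 and Isg15 by 2.50 ± 0.41. Ifit1, from 3.402 and 17.0 CPM to 87.9 and 708 CPM, passed only with the block (5.08, edgeR adjusted p = 0.000114). At 1000 UMIs a cell, an Isg15 UMI was found in 0 of 26 untreated cells of replicate 1, which allows a share of up to 11.5% (3 counts), and 11.8% of replicate 2, against 25.0% (5.49 to 57.2) and 41.7% (22.1 to 63.4) with cytokines. Rsad2, with 0 untreated UMIs, was at least 13.6-fold higher with cytokines, with the untreated group set to a floor of 3 UMIs over its libraries, but all 27 of its cytokine UMIs were in replicate 2 and replicate 1 had 0, so the bound rests on 1 library.

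With cytokines and NMMA 4 mesenchymal members were higher than untreated (1.92% of all genes), and Ifit1 passed with the block (3.98, edgeR adjusted p = 0.000992). With NMMA added to cytokines no member was called by edgeR (0.0% of all genes), with 0 at an unadjusted p under 0.05 and 0 by DESeq2. With NMMA alone none was called either (0.0% of all genes, 0 by DESeq2), with Zbp1 (2.20) at an unadjusted p under 0.05. In simulated counts for cytokines against untreated, 0% of 2-fold changes were recovered in mesenchymal cells, so these counts do not show that levels were unchanged. The 9 β-cell markers summed to 46168 and 5959 CPM in untreated mesenchymal cells and 2433 and 2997 CPM with cytokines, and the class's own 8 markers to 6209 and 2763 CPM and 3227 and 1991 CPM. The 10 macrophage markers were at 10.6 and 294 CPM with cytokines and NMMA, against 16.8 and 17.5 CPM untreated, and the part of these markers was not tested. These sums come from 13 to 50 cells a library, and the count of 5 with cytokines fell to 1 without untreated replicate 1, 3 without untreated replicate 2 and 2 without cytokine replicate 2.

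**Figure D4:**
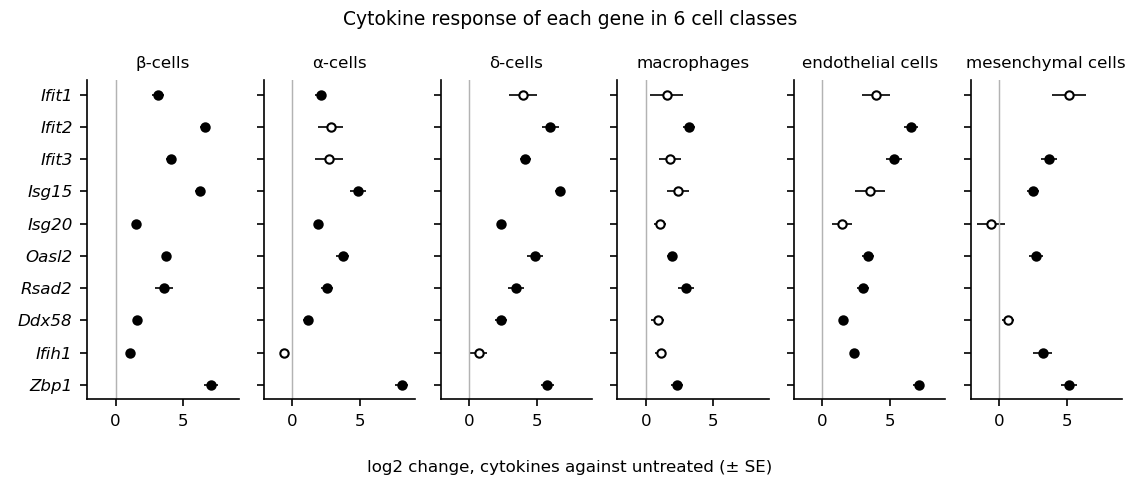
Log2 change of each gene with cytokines against untreated in the 6 classes (points, horizontal bars ± SE, the δ-cell values from 1 cytokine library), filled where the edgeR adjusted p was under 0.05. Of 58 tests, 56 values are positive and 41 are filled. Ifih1 in α-cells and Isg20 in mesenchymal cells are the negative ones, and Ifit2 and Rsad2 have no point in mesenchymal cells.

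Over the 6 classes, 41 of 58 tests of cytokines against untreated passed with a higher level and none with a lower one. Whether a response differed from that of β-cells was tested directly with library as a block. In α-cells, 2 of 10 members differed (4.71% of all genes), Ifih1 by −1.62 ± 0.30 (edgeR adjusted p = 0.000179) and Ifit2 by −4.13 ± 0.79 (edgeR adjusted p = 0.000299). The Ifit2 difference rests on the single untreated cell described above, since it was 1.69 without untreated replicate 1, and with the replicate in place of the library as the block it did not pass (−3.62, edgeR adjusted p = 0.157).

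In macrophages 4 members responded less than in β-cells as a log2 ratio (4.36% of all genes were called in either direction). Their untreated levels were higher in macrophages. Zbp1 went from 47.1 and 137 CPM to 444 and 509.8 CPM there. In β-cells it went from 0.361 and 1.21 CPM to 96.1 and 81.2 CPM, each scaled within its class. Zbp1 differed by −4.24 ± 0.39 (edgeR adjusted p = 6.37e-24), Ifit2 by −3.04 ± 0.60, Ifit3 by −1.80 ± 0.37 and Oasl2 by −1.52 ± 0.35. The Ifit3 difference was 0.06 without untreated replicate 2, and it did not pass with the replicate as the block (−2.21, edgeR adjusted p = 0.227). The count was 1 without untreated replicate 2.

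In endothelial cells Ifit3 responded more than in β-cells by 1.49 ± 0.47 (edgeR adjusted p = 0.0316) and Ifih1 by 1.47 ± 0.43 (edgeR adjusted p = 0.0144), 2 of 10 where 6.32% of all genes were called. The Ifit3 difference did not pass with the replicate as the block (1.35, edgeR adjusted p = 0.549), and neither was called without untreated replicate 1 or without untreated replicate 2. In mesenchymal cells Isg15 responded less as a log2 ratio, by −3.56 ± 0.49 (edgeR adjusted p = 5.96e-10), 1 of 10 where 1.68% of all genes were called. Its level started higher there. β-cells went from 0.695 and 1.21 CPM to 84.6 and 51.8 CPM, and mesenchymal cells from 74.9 and 133 CPM to 586 and 608 CPM, each scaled within its class. With the replicate as the block Ifih1 passed as well (2.38, edgeR adjusted p = 0.0343). The count was 2 or 3 without either library of cytokines or of cytokines with NMMA. In simulated counts, the test of a difference from β-cells recovered 0% of 2-fold and 3% of 4-fold differences in mesenchymal cells. In δ-cells, which had 1 cytokine library, it recovered 0% and 19%. A gene that was not called is thus not shown to respond as in β-cells. In δ-cells none differed by edgeR (3.17% of all genes), with 2 at an unadjusted p under 0.05 and 0 by DESeq2.

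To order the classes, levels were also put on 1 scale over all sums (TMM over the 47 sums of class and library). Macrophages had the highest mean for 7 of the 10 genes untreated and for 5 with cytokines, and α-cells had the lowest for 7 of the 10 with cytokines. For Isg15 with cytokines the order was macrophages (669 and 1343 CPM), endothelial cells (447 and 711 CPM), mesenchymal cells (435 and 499 CPM), δ-cells (435 CPM), β-cells (124 and 75.0 CPM) and α-cells (39.4 and 22.7 CPM). The first 4 did not differ from their neighbours beyond the range of their libraries, and the steps from δ- to β-cells and from β- to α-cells did. For Zbp1 with cytokines, macrophages (464 and 534 CPM) stood above endothelial cells (222 and 315 CPM), mesenchymal cells (190.1 and 316 CPM), β-cells (141 and 118 CPM), δ-cells (117 CPM) and α-cells (102 and 119.6 CPM).

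Isg20 and Ifih1 had other orders. Isg20 was highest in β-cells in every condition on this scale, with 211 and 189 CPM untreated and 629 and 519.7 CPM with cytokines, and it was low in endothelial cells, at 1.46 to 27.5 CPM over all conditions, the lowest mean except with cytokines alone, where mesenchymal cells (0 and 36.5 CPM) were lower without being distinct. The place of β-cells depended on the scaling. Scaled within each class, mean Isg20 was 136 CPM in β-cells and 118 CPM in δ-cells untreated. With cytokines these means were 394 and 619 CPM (1 δ-cell library), and with cytokines and NMMA 554 and 827 CPM. For Isg20 in untreated endothelial cells, the insulin-based ceiling on free RNA came to as much as 79.6% of the level. Ifih1 was highest in α-cells when untreated (50.6 and 52.5 CPM), apart from the next class, macrophages (23.0 and 28.4 CPM). With cytokines α-cells (34.9 and 30.5 CPM) followed endothelial (75.1 and 74.1 CPM) and mesenchymal cells (38.0 and 109 CPM) and macrophages (37.7 and 75.8 CPM), and β-cells were lowest (24.1 and 28.3 CPM).

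**Figure D5:**
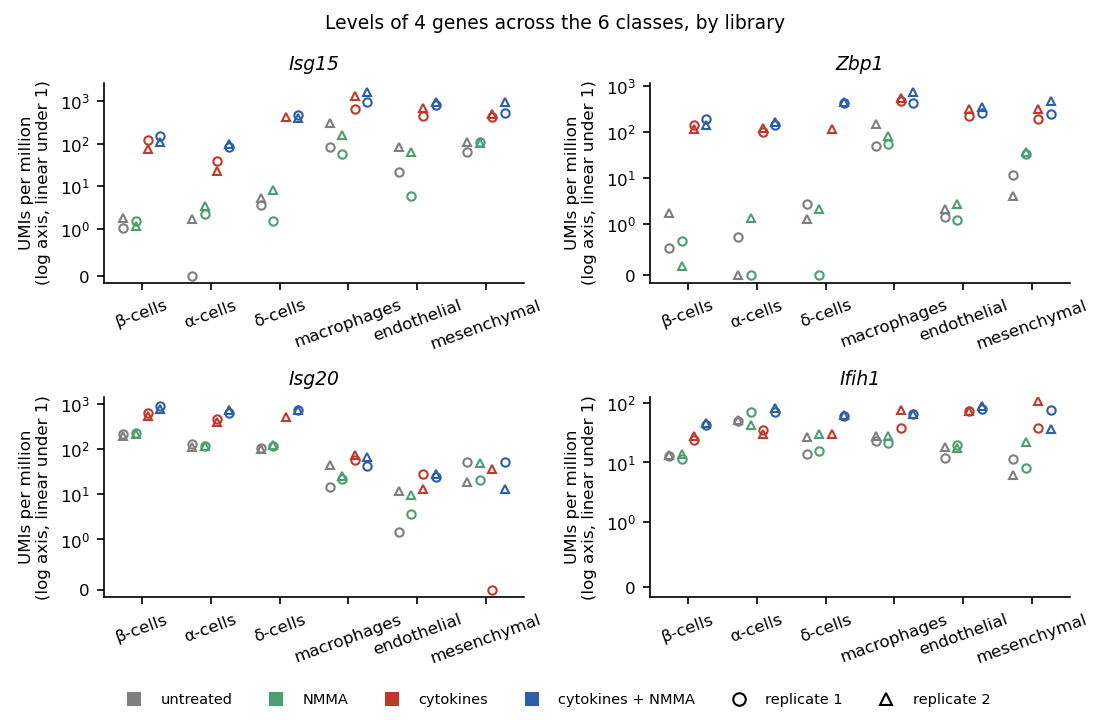
Levels of Isg15, Zbp1, Isg20 and Ifih1 in the 6 classes in CPM on the scale shared by all sums (log axis, linear under 1), with 1 point for each library. On this scale Isg15 and Zbp1 are highest in macrophages with cytokines, Isg20 is highest in β-cells throughout, and among untreated cells Ifih1 is highest in α-cells. Scaled within each class, mean Isg20 is higher in δ-cells than in β-cells with cytokines, with or without NMMA. The δ-cells have 1 library with cytokines.

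Across the 47 sums, the members varied together except for Isg20. As a description over sums that share libraries, the log2 level of each gene correlated with the mean of the other members at r = 0.91 for Ifit2 and Zbp1, 0.89 for Ifit3, 0.88 for Ifit1 and Oasl2, 0.80 for Isg15, 0.75 for Rsad2 and Ddx58, 0.63 for Ifih1 and 0.13 for Isg20. Of 7859 genes ranked by likeness to the mean of the 10, the nearest included Parp9 (r = 0.946), Psmb8, Irgm1, Xaf1, Psme1, Tap1, H2-T23, Idnk and Psmb10 (r = 0.929).

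The other genes of these pathways were counted from 5 lists. Of the genes of RNA and DNA sensing, 9 of 14 tested rose in β-cells with cytokines, where 23.8% of all genes were called higher (the share to set beside each β-cell list with cytokines). They included Mlkl (4.75 on the log2 scale), the executor of necroptosis, Dhx58 (2.69), a relative of Ddx58 and Ifih1, and Irf7 (2.32), a transcription factor for type I interferon genes. Ikbke rose by 2.56, Myd88 by 1.52, Tbk1 by 1.01, Adar by 0.95, Ticam1 by 0.73 and Trim25 by 0.48. Of the adaptors Mavs and Tmem173, the transcription factor Irf3 and the receptor Tlr3 (−0.12) none passed, nor did Eif2ak2 (0.07), a kinase activated by double-stranded RNA.

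Of the oligoadenylate synthetase genes and their relatives, Oas3 (6.44), Oas1g (4.26), Oas1a (3.69), Oas2 (3.14) and Oasl1 (2.86) rose, and Oas1c fell by 2.16. All 5 genes of Isg15 conjugation and removal rose, Ube2l6 (3.85) and Herc6 (3.18) for conjugation, Usp18 (2.51) for removal, Uba7 (2.42) for activation, and Trim25. All 13 other effectors tested rose, from Cmpk2 (1.25) to Trim30a (6.51), with Sp100 (4.58), Ifit1bl1 (4.49) and Ifi44 (4.22) among them. In the list of interferons, their receptors and the factors they activate, Stat2 (2.95) and Irf9 (2.44), both transcription factors of the type I interferon response, were among the genes that rose.

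These 3 lists were counted in the other classes with cytokines. In α-cells, where 13.9% of all genes were called higher, 5 of 13 sensing genes tested, 4 of 5 Isg15 conjugation genes and 7 of 9 other effectors were. In δ-cells (4.47% of all genes) these counts were 4 of 12, 2 of 5 and 7 of 12, and in macrophages (3.82%) they were 1 of 11, 1 of 5 and 2 of 12. In endothelial cells (4.65%) they were 6 of 11, 5 of 5 and 10 of 12, and in mesenchymal cells (1.73%) 1 of 8, 1 of 3 and 4 of 10.

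With NMMA added to cytokines, β-cells had 3 of 14 sensing genes higher and 1 lower than with cytokines alone, where 10.4% of all genes were called higher. Tlr3, an endosomal receptor for double-stranded RNA, rose by 2.48 (edgeR adjusted p = 0.00209), Eif2ak2 by 1.48 and Trim25 by 0.49, while Ikbke fell by 1.01. Oas1c (1.93) and Oas3 (1.11) rose as well. Of the other effectors 4 of 13 rose, among them Ifi44 (1.61), Samhd1 (1.39) and Sp100 (1.34).

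RNA of interferons themselves was scarce. Ifnb1 had 2 UMIs over all classes and libraries. In β-cells Ifnl2 and Ifnl3, type III interferons, were seen in the libraries with cytokines only, mostly in replicate 1, with 116 and 107 UMIs in 78 of 1132 cells and up to 47 UMIs in a cell. Cytokine replicate 2 had 6 and 5 UMIs in 5 cells, and the replicates of cytokines with NMMA had 14 and 14 UMIs and 1 and 0 UMIs. The 4 libraries without cytokines had none, and with replicates this far apart the genes did not pass the test.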

How the data were processed

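Intact islets were dissociated after the 18 h culture, and RNA of single cells was captured with 10x Genomics 3′ reagents (the labels name version 2, the methods of the study version 3). The authors aligned the reads to mm10 with Cell Ranger (file headers: 3.0.0 for replicate 1, 6.0.0 for replicate 2) and deposited UMI counts per gene and barcode, unnormalized. From these counts, barcodes with 200 or more genes, at most 5500 (replicate 1) or 6500 (replicate 2) genes and at most 10% mitochondrial UMIs were kept. They were clustered in scanpy 1.11.5 on 2000 variable genes, 30 principal components and 20 neighbours (Leiden, leidenalg 0.10.2, resolution 1), and clusters were named from fixed markers. The settings of the naming rule were chosen after the clusters had been seen, so class sizes can differ from those of the study. Clusters of few UMIs, or led by markers of another class, stayed unnamed. Barcodes called doublets were those with the highest scrublet scores of a library. Their number (200 barcodes, 1.839%) was set by an assumed 0.8% per 1000 barcodes and not by a cut on the score. They stayed in the sums and were left out in an alternative.

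Raw counts of a class were summed per library (10 cells or more) and tested in edgeR 4.0.16 (R 4.3.3, filterByExpr, TMM, robust quasi-likelihood) with the 4 conditions in 1 fit, and with Benjamini-Hochberg adjustment over all genes. SE is the log2 change over the root of F. The difference between 2 classes was an interaction term with library as a block. Shares of cells used counts thinned to 10000 UMIs (β-cells), 8500 (α-cells), 7000 (δ-cells), 1500 (macrophages), 4500 (endothelial cells) or 1000 (mesenchymal cells), with exact Clopper-Pearson intervals at 95% that cover counting error only. Libraries held 26549922 to 50731370 UMIs. Each fit was tested on simulated data. For cytokines against untreated, 2-fold changes were recovered at 34.3% in β-cells, 31% in α-cells and 5% in δ-cells. In macrophages, endothelial and mesenchymal cells it was 15.2%, 12% and 0%. A member that was not called is thus not shown to be unchanged. Alternatives were RLE or total UMI scaling, DESeq2 1.42.0, no filter, a replicate block, a minimum of 5 cells, doublets left out, clusters rebuilt without these genes, each library left out, and other depths.

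The replicates are separate pools of islets. They also differ in Cell Ranger version (3.0.0 for replicate 1, 6.0.0 for replicate 2). In the fits of conditions without a block, the p-values measure the spread between 2 libraries per condition, which holds both differences, except that δ-cells with cytokines alone had 1 library. The Nos2 split and the differences from β-cells had library as a block, so their p-values measure how contrasts within a library varied between libraries. The fits with a replicate block set aside the mean difference between the replicates. Samples with the same replicate number deviated together from their group means in every class (in β-cells r = 0.602 to 0.700, median 0.663, and at the lowest 0.12 in mesenchymal cells). Pool and Cell Ranger version cannot be told apart in this shared deviation. All 10 members are named, and related genes come from 5 lists, named where called in β-cells or where a count needed it. The nearest genes were ranked by Pearson correlation of log2 CPM with the mean of the members over 47 sums. Some genes of these lists are not reported here. The members and lists were chosen with earlier results of these data known. Of the 30406 gene IDs shared by both versions of the gene list, 597 carry another symbol in replicate 2. Gene positions are those of GENCODE M21, and promoter sequences those of RefSeq on GRCm38.p6.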

Additional observations from a re-analysis of the deposited data

Results flagged for a closer look

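The cytokine response differed from that of β-cells for 9 combinations of gene and class, by the test of the difference itself (log2 response in the class minus that in β-cells, edgeR adjusted p under 0.05, 9 of 50 tests). In α-cells these were Ifit2 (−4.13) and Ifih1 (−1.62). In macrophages they were Zbp1 (−4.24), Ifit2 (−3.04), Ifit3 (−1.80) and Oasl2 (−1.52), in endothelial cells Ifit3 (1.49) and Ifih1 (1.47), and in mesenchymal cells Isg15 (−3.56). With the replicate in place of the library as the block, Ifit2 in α-cells, Ifit3 in macrophages and Ifit3 in endothelial cells did not pass, and the first 2 changed sign without 1 untreated library (to 1.69 and 0.06). Untreated macrophages had Zbp1 at 47.1 and 137 CPM and Oasl2 at 49.9 and 85.0 CPM, where β-cells had 0.361 and 1.21 CPM and 4.20 and 5.03 CPM.

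A signal also appeared in barcodes that entered no comparison. In the barcodes that could not be named, the summed level of the 10 genes was 1437 and 482 CPM with cytokines (mean 959, from 50 and 264 barcodes), 1856 and 1013 CPM with cytokines and NMMA, and 132 and 174 CPM untreated. In barcodes with high insulin whose leading genes marked another endocrine class, it was 297 and 328 CPM with cytokines (mean 313, from 1 and 4 barcodes), against 222 and 195 CPM untreated. The latter rest on 5 barcodes in all.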

How the results depend on the processing

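Counts of members called were recomputed under 472 alternatives over 30 counts, and 442 stayed within 1.5 times the value reported. With the replicate as a block, β-cells had 5 members higher with NMMA added to cytokines (3 without it), and the members that differed from β-cells numbered 1 in α-cells, 1 in endothelial cells and 2 in mesenchymal cells. Beyond the calls given with a blocked value above, the block changed no other call. Shares of all genes called under the block are not reported here, so the blocked counts have no background beside them. Without the filter on low counts, NMMA alone changed 1 member in β-cells. The differences from β-cells numbered 1 in δ-cells under RLE scaling, total UMI scaling or a minimum of 5 cells, 2 in mesenchymal cells under total UMI scaling and 1 in endothelial cells with DESeq2. Why these counts moved was not tested.

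With each library left out in turn, the count with cytokines against untreated ran from 9 to 10 in β-cells, 2 to 5 in macrophages and 1 to 7 in mesenchymal cells, and that of cytokines with NMMA against cytokines in β-cells from 0 to 3. Differences from β-cells ran from 1 to 4 in α-cells (1 without untreated replicate 1, 4 without cytokine replicate 2), 0 to 1 in δ-cells (1 without either NMMA library), 1 to 6 in macrophages, 0 to 3 in endothelial cells and 1 to 3 in mesenchymal cells. Of 1970 recomputed gene values, 1841 kept direction and side of the threshold, 101 lost and 24 gained significance, and 4 reversed: Isg20 in mesenchymal cells (0.28 without untreated replicate 1, 0.12 without cytokine replicate 1, and down to −6.72 without cytokine replicate 2, where the cytokine library left had 0 UMIs), Ifit2 in α-cells against β-cells (1.69 without untreated replicate 1, otherwise down to −4.69) and Ifit3 in macrophages against β-cells (0.0559 without untreated replicate 2, otherwise down to −2.89).

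The mean share of cells with a UMI of a member with cytokines depended on depth. It was 33.4%, 23.4%, 56.4%, 27.7%, 47.8% and 11.3% in β-, α- and δ-cells, macrophages, endothelial and mesenchymal cells, 47.8%, 32.4%, 62.5%, 52.9%, 71.3% and 38.9% with no thinning, and 7.18%, 5.05%, 19.1%, 17.8% and 20.7% in the first 5 at the mesenchymal depth. Shares can thus be compared between conditions of a class and not between classes. Small sums limit the δ-cell results (12 to 84 cells a library), the endothelial ones (14 to 52) and the mesenchymal ones (13 to 50).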

Other observations

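A small number of cells carried many of the 10 genes without cytokines. With all their UMIs, 13 of 1664 β-cells of untreated replicate 1 (0.781%, 95% exact interval 0.417 to 1.33) had a UMI of at least 5 of the genes, as did 22 of 606 in untreated replicate 2 (3.63%), 18 of 666 in NMMA replicate 1 (2.70%) and 19 of 613 in NMMA replicate 2 (3.10%). The cells were chosen by UMIs of these same genes, so a raised part of those UMIs in them follows from the choice. In untreated replicate 1, these 13 cells held 175 of the 333 Ifit1 UMIs of all β-cells, 114 of 200 Rsad2 UMIs, 52 of 100 Ifit3 UMIs and 12 of 14 Ifit2 UMIs, with as many as 59 Ifit1 UMIs in a cell. Such cells held 54 of 217 Ifit1 UMIs in untreated replicate 2, 37 of 141 in NMMA replicate 1 and 153 of 313 in NMMA replicate 2, and 49 of 114, 28 of 85 and 146 of 264 Rsad2 UMIs. They were deeper than the other β-cells, with a median of 24716 against 20373 UMIs in untreated replicate 1, 33792.5 against 25064.5 in untreated replicate 2, 31768 against 29695 in NMMA replicate 1 and 36038 against 22866 in NMMA replicate 2, and the part of depth in their number was not tested. With each cell thinned to 10000 UMIs, at least 5 of the genes were found in only 0.316% and 0.784% of untreated β-cells and 0.611% and 0.739% with NMMA alone. Of the 72 cells counted before thinning over the 4 libraries, 3 were called doublets and 1 had a Nos2 UMI. Macrophage markers were not higher in them than in the other β-cells (33.3 to 37.3 against 38.9 to 72.7 CPM by library).

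Among untreated macrophages, 18 of 72 in replicate 2 (25.0%, 15.5 to 36.6) and 4 of 38 in replicate 1 (10.5%, 2.94 to 24.8) had at least 5 of the genes. These cells, again chosen by the same genes and on unthinned counts, held 84.1% and 47.1% of the members' UMIs in macrophages of their library. The 8 δ-cells of cytokine replicate 1, which entered no test, had Isg15 at 522 CPM, Zbp1 at 163 CPM, Ifit3 at 710 CPM and Ifit1 at 342 CPM.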
